A study of Mus musculus with 23 samples.

Results

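To see how DNA methylation of the acetylcholine system varied with strain and with a Gulf War illness exposure, CpG regions were examined in 10 genes that make, break down or bind acetylcholine. The genes were the cholinesterases Ache and Bche, the synthetic enzyme Chat, the muscarinic receptors Chrm1, Chrm2, Chrm3 and Chrm4, and the nicotinic receptor subunits Chrna4, Chrna7 and Chrnb2. The members were all 150 bp windows that lie inside a span around each gene, set by position alone and not by any measured value. They numbered 35 of the 210191 CpG regions in the series.

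The data were collected by MBD-seq, in which the MBD2 protein captures DNA fragments with methylated CpGs before they are sequenced, so the reads on a region rise with its methylation. DNA came from the prefrontal cortex of 23 mice (11 females, 12 males) of the inbred strains C57BL/6J (B6) and DBA/2J (D2). CORT+DFP mice drank corticosterone (20 mg%) for 7 days and were then injected with diisopropyl fluorophosphate (DFP, 4 mg per kg), a stand-in for the nerve agent sarin, with further corticosterone every other week until the tissue was taken, while control mice had neither corticosterone nor DFP and were injected with saline. There were 5 control B6 mice, all 145 days old, 6 CORT+DFP B6 mice of 145 to 226 days, 6 control D2 mice and 6 CORT+DFP D2 mice, both of 147 to 196 days. The sample names place the mice in 3 sets, and the sets were not spread evenly. All 5 B6 control mice were in set 2, while B6 CORT+DFP mice came from sets 1 and 2, and D2 mice of both treatments from sets 1 and 3. The depth was 9776537 to 18428398 reads in these regions, depending on the mouse. DNA gives no check of the tissue by marker expression.

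Acetylcholine is made from choline and acetyl-CoA by choline acetyltransferase, and in the cortex it is released mainly by axons from the basal forebrain. It acts on muscarinic receptors, which signal through G proteins, and on nicotinic receptors, which are pentameric cation channels. Acetylcholinesterase ends its action by hydrolysis, and butyrylcholinesterase is a related enzyme with a broader choice of substrates. Organophosphates such as DFP bind covalently to the active-site serine of both enzymes. DNA methylation in promoters with many CpGs usually goes with silence of the gene, while the bodies of genes are methylated in most tissues.

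The 35 regions lay in 7 of the 10 genes, and none was listed for Bche, Chrm1 or Chrm4. Windows listed made up 0.502% of the 6979 that the 10 spans could hold. Of the 35, 16 lay in a coding exon of the named gene, 4 across the edge of such an exon and an intron, 11 in introns, and 4 outside the named gene. Regions are numbered below along the direction of transcription of each gene, and the coordinates are those of GRCm38 (mm10).

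The plot of regions along each gene shows how they clustered. Chrna4, which encodes the α4 nicotinic subunit, had 8 adjoining regions (chr2:181028401-181029600, 1200 bp with 52 CpGs) in exon 5 of 6, which hold parts of codons 130 to 521 of 629. Chrnb2, which encodes the β2 subunit that pairs with α4 in the most abundant nicotinic receptor of the brain, had 6 adjoining regions (chr3:89760601-89761500, 900 bp with 50 CpGs) in exon 5 of 6, at codons 169 to 445 of 501. In both genes these exons encode most of the membrane-spanning helices and a large part of the intracellular loop. Chrna7, which encodes the α7 subunit, had 3 regions (chr7:63099301-63099750) in exon 10 of 10, at codons 331 to 478 of 502, mostly the intracellular loop.

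**Figure D1:**
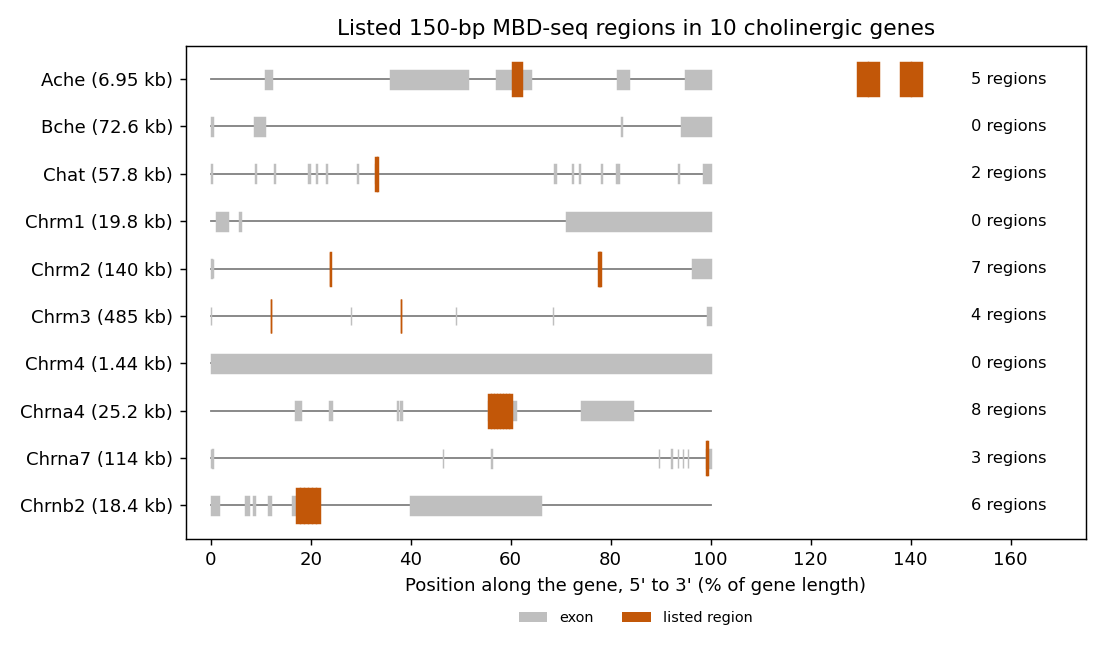
Listed regions (orange) and exons of the longest transcript (grey) along each of the 10 genes, with position in percent of the length of the gene from its 5′ end. Regions fell inside 7 genes, those of Chrna4, Chrna7 and Chrnb2 over a late or large coding exon, and 4 of the 5 of Ache past its 3′ end.

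The single region inside Ache (region 1, chr5:137291701-137291850) was in exon 3 of 5, at codons 431 to 480 of 614, and its last bases hold the codon of the catalytic histidine. The other 4 regions in the Ache span, numbered 2 to 5 (chr5:137296501-137296800 and chr5:137297101-137297400), lay in the neighbouring gene Srrt, which encodes an RNA-processing factor. Regions 2 and 3 also overlap the microRNA gene Mir7036. Chat had 2 regions (chr14:32446651-32446950) at exon 8 of 16, covering codons 209 to 264 of 645. The regions of the muscarinic receptors were all intronic. Chrm2, the main inhibitory muscarinic receptor, had 2 regions at chr6:36421501-36421800, which reach into the Mir490 gene, and 5 at chr6:36496801-36497550. Chrm3, a receptor coupled to Gq, had 2 regions at chr13:10302001-10302300 and 2 at chr13:10176151-10176450, the latter in an exon of Gm47404, a noncoding gene within the intron.

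The sequences below are those of 5 exonic regions, the one inside Ache, the 2 counted for treatment, and one each of Chat and Chrna7 as examples of those genes with no region counted, cut from GENCODE M21 transcripts (GRCm38) and written in the direction of the gene with each CpG in capitals. Of the 35 regions, 20 lie within an exon and could be read in this way, and the CpG count of the sequence equalled that of the file in 19 of them. In Chrna4 region 6 the file counts 7 CpGs and the sequence holds 6.
Ache region 1 (chr5:137291701-137291850, plus strand), 5 CpGs, the region with the smallest p for the treatment-by-strain interaction: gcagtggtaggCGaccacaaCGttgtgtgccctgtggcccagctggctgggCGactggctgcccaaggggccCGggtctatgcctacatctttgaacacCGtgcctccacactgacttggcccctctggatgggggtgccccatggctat
Chat region 1 (chr14:32446801-32446950, minus strand), 9 CpGs, the region of higher level in Chat: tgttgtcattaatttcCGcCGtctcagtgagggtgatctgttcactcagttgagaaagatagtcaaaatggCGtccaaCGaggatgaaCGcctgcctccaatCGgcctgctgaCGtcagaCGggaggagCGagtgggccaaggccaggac
Chrna4 region 6 (chr2:181028701-181028850, minus strand), the region with the smallest p for treatment in B6: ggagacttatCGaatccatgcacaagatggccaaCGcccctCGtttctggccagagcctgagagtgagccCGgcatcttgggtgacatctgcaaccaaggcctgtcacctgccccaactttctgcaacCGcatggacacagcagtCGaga
Chrna7 region 3 (chr7:63099301-63099450, minus strand), 8 CpGs, in the last exon: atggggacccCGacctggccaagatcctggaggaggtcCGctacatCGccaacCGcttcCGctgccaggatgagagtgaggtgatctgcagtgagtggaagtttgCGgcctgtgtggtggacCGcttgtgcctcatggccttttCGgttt
Chrnb2 region 1 (chr3:89761351-89761500, minus strand), 10 CpGs, the region with the smallest p for treatment in D2: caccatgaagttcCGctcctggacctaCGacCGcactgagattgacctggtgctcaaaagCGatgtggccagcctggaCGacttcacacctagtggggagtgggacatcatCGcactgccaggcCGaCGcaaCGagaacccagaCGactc

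No member region lay at a promoter examined for these genes. Distance was taken to the start of the longest protein-coding transcript of the named gene. By this measure the nearest region was Chrnb2 region 1, which was 3206 bp away. Distances to other start sites, such as those of Srrt, Mir7036, Mir490 and Gm47404, were not measured. RefSeq promoters (GRCm38.p6, 300 bp each) were found for 9 of the 10 genes, all but Chrm1, and 0 of the 9 overlapped a listed region. Among all 32851 RefSeq promoters 945 did, or 2.88%, so a count of 0 among 9 is near that share. The promoters of Ache, Chrm4, Chrna4 and Chrna7 held 30 to 35 CpGs, those of Chat, Chrm2, Chrm3 and Chrnb2 10 to 16, and that of Bche 8. Of promoters with 20 or more CpGs 1.4% overlapped a listed region, of those with 10 to 19 CpGs 7.2%, and of those with fewer than 10 CpGs 2.27%. A window that is not listed had too few reads or no CpG. The unlisted promoters of Ache, Chrm4, Chrna4 and Chrna7 were rich in CpGs, while for a promoter with few CpGs, such as that of Bche, low methylation and few CpGs cannot be told apart here. The 250 bases before the start of 3 genes are shown for this contrast, from RefSeq (GRCm38.p6), with CpGs in capitals. Bche is poor in CpGs, Chrm4 is rich in them, and Chrnb2 lies between and has its methylated exon farther down.
Bche upstream (chr3:73708416-73708665, minus strand), 8 CpGs: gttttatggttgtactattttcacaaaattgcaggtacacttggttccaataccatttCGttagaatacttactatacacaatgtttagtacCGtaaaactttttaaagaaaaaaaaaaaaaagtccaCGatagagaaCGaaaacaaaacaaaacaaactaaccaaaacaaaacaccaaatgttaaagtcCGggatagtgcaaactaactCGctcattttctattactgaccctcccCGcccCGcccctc
Chrm4 upstream (chr2:91921939-91922188, plus strand), 26 CpGs: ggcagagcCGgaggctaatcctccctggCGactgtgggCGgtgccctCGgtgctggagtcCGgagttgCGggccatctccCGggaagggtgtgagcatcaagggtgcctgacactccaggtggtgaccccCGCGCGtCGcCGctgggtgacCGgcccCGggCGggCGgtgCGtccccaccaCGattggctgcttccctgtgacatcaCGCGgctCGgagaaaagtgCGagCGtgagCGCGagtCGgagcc
Chrnb2 upstream (chr3:89764633-89764882, minus strand), 10 CpGs: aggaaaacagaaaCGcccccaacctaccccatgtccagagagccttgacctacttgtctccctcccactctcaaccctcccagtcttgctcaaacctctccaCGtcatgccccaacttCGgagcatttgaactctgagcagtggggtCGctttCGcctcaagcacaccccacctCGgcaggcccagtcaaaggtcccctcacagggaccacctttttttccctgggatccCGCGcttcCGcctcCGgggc
The Mir490 hairpin, which Chrm2 region 2 overlaps (chr6:36421742-36421825, plus strand), holds 2 CpGs, in capitals in the RefSeq RNA sequence: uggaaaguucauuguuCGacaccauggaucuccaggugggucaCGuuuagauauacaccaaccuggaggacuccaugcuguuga

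Methylation levels, in log2 RPKM (reads scaled to the length of the region and to the size of the library, on a log2 scale), were slightly above those of the series. The mean over the 23 mice lay between 3.95 and 5.00 in the 35 regions, with a median of 4.64 against 4.38 over all regions. They held 1 to 13 CpGs, with a median of 7 against 6, and 9 to 107 reads per mouse, with a median of 46 against 41. Regions with more CpGs had higher levels, with Pearson r = 0.440 over the 35 regions and 0.148 over all regions. This is a description over regions, many of which adjoin one another and share fragments.

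By gene, taking the mean over the regions inside it, Chrnb2 was highest, with group means from 4.80 ± 0.07 in D2 control (SD, n = 6) to 4.88 ± 0.13 in D2 CORT+DFP mice (n = 6). Chrna7 followed with group means of 4.68 to 4.83, and Chrna4 with 4.64 to 4.73. In D2 CORT+DFP mice Chrna7 was at 4.68 ± 0.13 (n = 6), so that its gap to Chrnb2 was wider than either SD, while single mice of the 3 nicotinic genes overlapped. Chrm2 was at 4.45 to 4.60 and Chrm3 at 4.28 to 4.56, so that these also overlapped each other. The lowest were Chat, at 4.13 to 4.28, and the single region of Ache, at 3.95 to 4.37. The nicotinic regions were mostly in long coding exons with many CpGs, and the CpG number was not adjusted for in these levels.

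**Figure D2:**
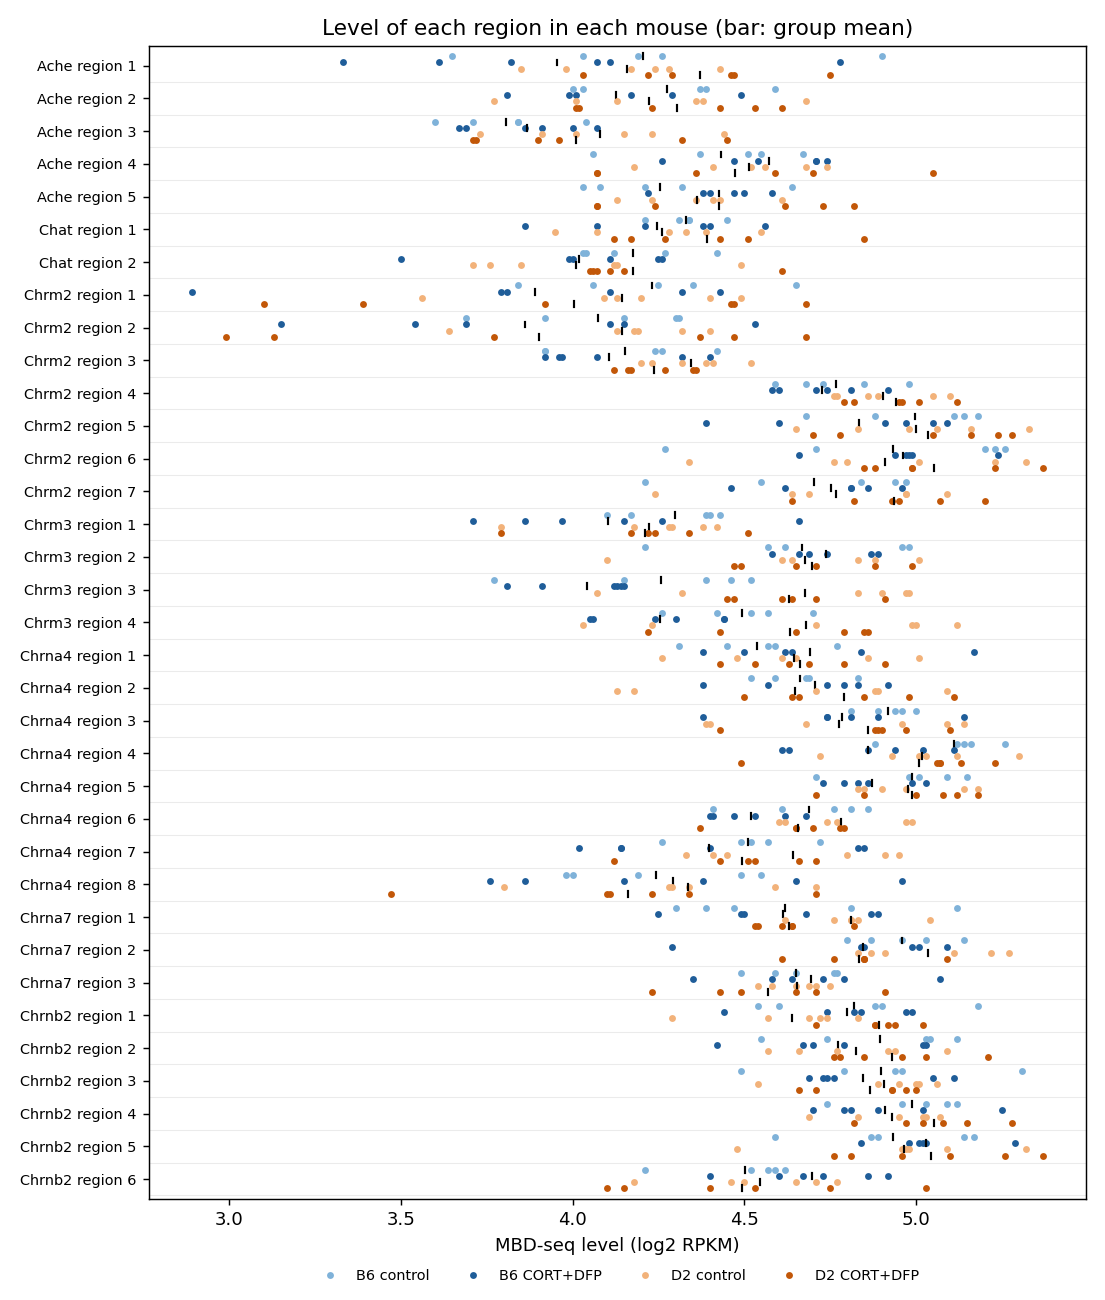
MBD-seq level (log2 RPKM) of the 35 regions in each of the 23 mice, with colours for the 4 groups and a black bar at each group mean. The groups overlapped in nearly every region, with the lowest means in Ache region 3 and Chrm2 regions 2 and 1 and the highest in the middle of the Chrm2, Chrna4 and Chrnb2 clusters.

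Within a gene the level rose and fell with position. In Chrna4 the mean over mice was 4.64 in region 1, 5.00 in region 4 and 4.26 in region 8, whose CpG counts were 8, 13 and 5. In Chrnb2 it lay between 4.79 and 5.00 in regions 1 to 5 and was 4.56 in region 6. In Chrm2 the 5 regions of the second cluster lay between 4.21 and 4.97, while regions 1 and 2, near Mir490, were at 4.06 and 3.99.

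The first comparison asked whether the strains differed at rest. No set held control mice of both strains, so strain and set cannot be told apart in it, among the members or over all regions. Reads of both strains were aligned to the same reference genome, and the paper states that the genomes of B6 and D2 differ at many variants. Whether such variants changed read alignment or the CpGs of a region was not tested. This limit holds for every strain difference given below, in the members, in the other gene lists and over all regions. In control mice, 0 of the 35 regions differed between D2 and B6 at an adjusted p under 0.05 (regression across all regions, Benjamini-Hochberg), where 25.4% of all regions did. At an unadjusted p of 0.05 or less there were 2, Chrm2 region 4 and Chrm3 region 3, against 33.1% of all regions. The smallest adjusted p among the members was 0.105, in Chrm2 region 4. Strain calls were less frequent in coding sequence throughout the series, at 6.42% of regions that overlap a coding exon, where 24 of the members lie, and 25.6% of regions of protein-coding genes outside exons, where the remaining 11 lie. The median size of the strain difference was 0.10 in the members and 0.20 in all regions, with a median standard error of 0.15 and 0.16.

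In the enzymes, the control strains were close. Ache region 1 measured 4.21 ± 0.45 in B6 (SD, n = 5) and 4.16 ± 0.21 in D2 control mice (n = 6), and the difference adjusted for sex and age was −0.20 (95% interval −0.68 to 0.29). Chat region 1 measured 4.33 ± 0.08 in B6 and 4.26 ± 0.22 in D2 control mice, and Chat region 2 measured 4.18 ± 0.17 and 4.01 ± 0.30. The adjusted differences in Chat were −0.09 and −0.19.

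In the nicotinic genes, the 17 regions had control strain differences between −0.16 and 0.23, and none had an unadjusted p of 0.05 or less. The greatest was in Chrna7 region 1, at 4.62 ± 0.34 in B6 and 4.81 ± 0.14 in D2 control mice, with an adjusted difference of 0.23 (95% interval −0.06 to 0.53). Chrna4 region 4 measured 5.11 ± 0.14 in B6 and 5.02 ± 0.19 in D2, and Chrnb2 region 4 measured 4.99 ± 0.15 and 4.93 ± 0.15. These intervals allow differences of about 0.3 in either direction in most regions, so that small differences were not detectable at this depth.

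The muscarinic genes held the 2 lowest p-values for strain in control mice. Chrm2 region 4 measured 4.77 ± 0.15 in B6 and 4.90 ± 0.14 in D2 control mice, with a difference of 0.19 (95% interval 0.02 to 0.36, adjusted p = 0.105). An exact two-sided permutation of strain within sex, with no age term, gave p = 0.19 there. With sex and age in the model, all 7 regions of Chrm2 had a higher estimate in D2 control mice, between 0.14 and 0.35. Without these terms the control mean was lower in D2 in region 1 (4.15, against 4.23 in B6) and region 6 (4.91, against 4.93). In CORT+DFP mice the model's estimates were −0.12, −0.17 and −0.03 in regions 1, 2 and 6, and positive in the others. Adjoining regions share fragments and are not separate observations. Chrm3 region 3 measured 4.26 ± 0.31 in B6 and 4.68 ± 0.39 in D2 control mice, with a difference of 0.37 (95% interval 0.01 to 0.74, adjusted p = 0.139), and the exact permutation gave p = 0.075.

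**Figure D3:**
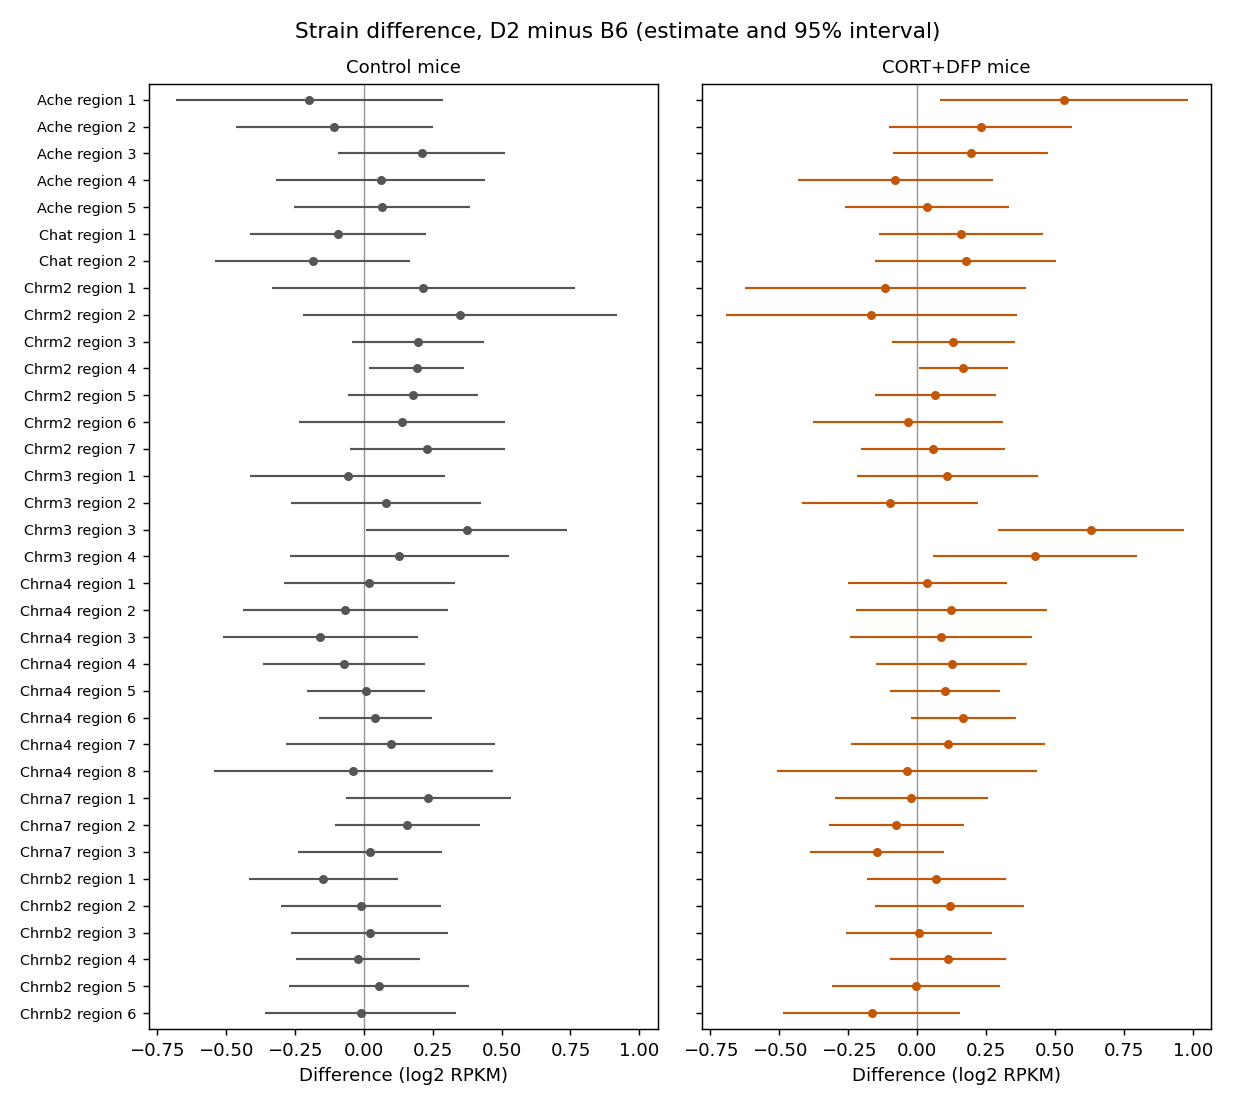
Strain difference (D2 minus B6, log2 RPKM) of each region in control and in CORT+DFP mice, with points for the estimate and lines for the 95% interval, from the regression with sex and age. Most intervals cross 0, and Chrm3 region 3 stands farthest from it, at 0.37 in control and 0.63 in CORT+DFP mice.

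In CORT+DFP mice, 1 of 35 regions differed between the strains at an adjusted p under 0.05, against 26.6% of all regions, and this was Chrm3 region 3. B6 CORT+DFP mice had 4.14, 4.13, 4.12, 4.15, 3.81 and 3.91 log2 RPKM there, and D2 CORT+DFP mice 4.61, 4.45, 4.71, 4.47, 4.64 and 4.91. Every D2 mouse was above every B6 mouse of this treatment. The difference was 0.63 (SE 0.16, adjusted p = 0.00548, regression over all regions). The exact permutation within sex gave p = 0.005, the smallest that its 400 arrangements allow. Control mice of the strains overlapped, with 3.77 to 4.52 in B6 and 4.07 to 4.98 in D2. Whether the strain difference depended on treatment is the interaction, which was 0.26 (95% interval −0.26 to 0.78, adjusted p = 0.861). Among mice of set 1 alone, where the strains were in 1 set, the D2 mean was 4.53 (n = 2) and the B6 mean 4.13 (n = 3). With set in place of age in the model the difference was 0.61 and the call was lost (adjusted p = 0.0614), and treated mice of the strains share only set 1.

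The sequence of Chrm3 region 3 is not peculiar to this place. Each of its 121 stretches of 30 bases also occurs in transcripts of genes elsewhere, 20 genes in all, and 119 of the 121 stretches of region 4 do. By contrast, 0 stretches of Ache region 1, Chat region 1, Chrna7 regions 2 and 3 and the readable regions of Chrnb2 were found elsewhere. Chrna4 regions 3 and 4 shared 6 and 14 of 121 stretches with Chrna2, another nicotinic subunit gene. Reads on Chrm3 regions 3 and 4 may therefore be shared among copies, and how the aligner placed them was not tested. For this reason their letters are not printed.

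The other regions below an unadjusted p of 0.05 in CORT+DFP mice were Ache region 1, Chrm2 region 4 and Chrm3 region 4, making 4 of 35 against 34.6% of all regions. Ache region 1 was 0.53 higher in D2 (SE 0.21, adjusted p = 0.0791). Chrm2 region 4 was 0.17 higher in D2 (SE 0.08, adjusted p = 0.124). With the strains compared over both treatments, a comparison added after seeing the data, 2 of the 35 regions passed an adjusted p of 0.05, against 33.6% of all regions. These were Chrm3 region 3 at 0.50 (SE 0.11, adjusted p = 0.0014) and Chrm2 region 4 at 0.18 (SE 0.05, adjusted p = 0.0124). In Chrm2 region 4 the residual SD was 0.66 times what counting error gives, the lowest ratio of the 35 regions. Its SE and p-values may therefore be too small. The regions of Chat, Chrna4, Chrna7 and Chrnb2 had differences over both treatments between −0.09 and 0.11. This comparison includes the control mice, in which strain and set cannot be told apart.

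The next comparison asked whether CORT+DFP shifted methylation in each strain. No region of the series passed an adjusted p of 0.05 for treatment in either strain or for the interaction by the regression, so regions at an unadjusted p of 0.05 or less were counted. In B6, 1 of 35 members was counted against 5.86% of all regions, and in D2 also 1 of 35 against 5.33%. Both shares are near the background. The median effect over the members was −0.03 in B6 and −0.01 in D2, with 16 regions above 0 and 19 below in each strain. The 2 effects of treatment do not share mice, but they come from the same fit.

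In B6 the region counted was Chrna4 region 6, in the part of the exon that encodes the intracellular loop. B6 control mice had 4.86, 4.76, 4.61, 4.81 and 4.41 log2 RPKM there, and B6 CORT+DFP mice 4.41, 4.62, 4.53, 4.68, 4.40 and 4.47. The treated mice lay lower on average and the groups overlapped. With sex and age in the model the effect was −0.24 (95% interval −0.46 to −0.02, adjusted p = 0.843). The exact permutation of treatment within sex gave p = 0.11. The residual SD in this region was 0.75 times what counting error gives, so the interval may be too narrow. Leaving out single mice moved the effect between −0.29 and −0.19, and 6 of the 23 omissions brought its unadjusted p above the threshold of 0.05, namely those of B6 control replicates 1, 2 and 4, B6 CORT+DFP replicate 5, D2 control replicate 1 and D2 CORT+DFP replicate 1. In D2 the effect in this region was −0.11 (95% interval −0.30 to 0.07), and the difference between the strains' effects was 0.13 (95% interval −0.17 to 0.42). The other Chrna4 regions had B6 effects between −0.22 and 0.03.

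The next smallest p-values in B6 belonged to Chrm2 region 7 (0.29, 95% interval −0.01 to 0.59), Ache region 1 (−0.47, −0.99 to 0.05), Chrm3 region 4 (−0.32, −0.75 to 0.10) and Chrm3 region 3 (−0.29, −0.68 to 0.10). All 4 intervals include 0.

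In D2 the region counted was Chrnb2 region 1. D2 control mice had 4.83, 4.69, 4.74, 4.29, 4.57 and 4.72 log2 RPKM, and D2 CORT+DFP mice 4.88, 4.94, 4.88, 4.92, 5.02 and 4.71. Of the 6 treated mice 5 were above every control mouse, and the sixth lay among them. With sex and age in the model the effect was 0.24 (SE 0.12, adjusted p = 0.936), just inside the unadjusted threshold. The exact permutation of treatment within sex gave p = 0.015 over 400 arrangements, for this 1 region picked among the 35. Leaving out single mice moved the effect between 0.16 and 0.30, the lowest effect being that without D2 control replicate 4. Of the 23 omissions, 15 brought the unadjusted p of the effect above the threshold of 0.05. Within set 3 the treated mean was 0.36 higher (n = 4 and 3), and within set 1 it was 0.15 higher (n = 2 and 3). In B6 the effect in this region was 0.03 (95% interval −0.26 to 0.31), and the difference between the strains' effects was 0.22 (95% interval −0.17 to 0.60).

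In Chrna7, D2 CORT+DFP mice were lower in all 3 regions, by estimates of −0.20 (95% interval −0.46 to 0.07), −0.23 (−0.46 to 0.01) and −0.09 (−0.33 to 0.14). Treated means were lower within both sets in regions 1 and 2, with differences of −0.20 in set 1 and −0.21 in set 3 for region 1, and −0.21 and −0.25 for region 2. In D2 mice alone with set as a term, the effects of regions 1 and 2 were −0.20 and −0.23 and passed the unadjusted threshold (adjusted p = 0.819 and 0.823). The B6 effects there were 0.06, 0.01 and 0.08. The interaction p-values in Chrna7 were between 0.206 and 0.354. In Chat the D2 effects were 0.13 and 0.17 and the B6 effects −0.12 and −0.19, and all p-values were above 0.2.

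**Figure D4:**
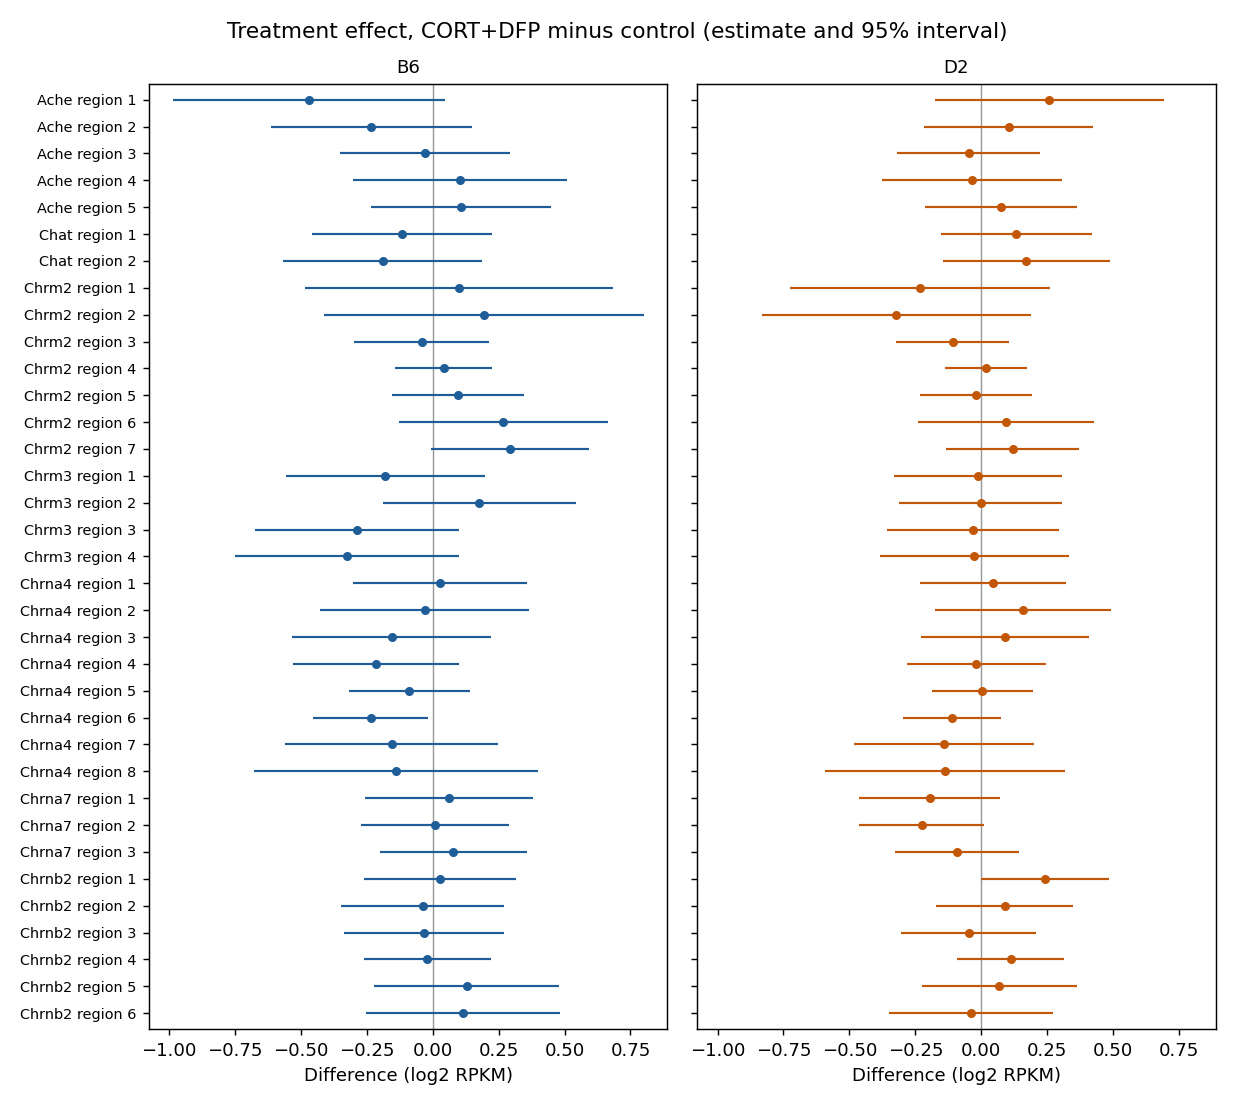
Treatment effect (CORT+DFP minus control, log2 RPKM) of each region in B6 and in D2, with points for the estimate and lines for the 95% interval. In B6 the interval of Chrna4 region 6 alone excludes 0, and in D2 that of Chrnb2 region 1.

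The effect of treatment differed most between strains in the one region inside Ache, the main enzyme that DFP inhibits. B6 control mice had 4.90, 3.65, 4.03, 4.19 and 4.26 log2 RPKM in Ache region 1, and B6 CORT+DFP mice 3.82, 4.78, 4.07, 3.61, 4.11 and 3.33. D2 control mice had 4.24, 4.28, 3.85, 3.98, 4.17 and 4.43, and D2 CORT+DFP mice 4.47, 4.75, 4.46, 4.29, 4.03 and 4.22. Treated mice lay lower on average in B6 and higher in D2, with wide overlap in both strains. The effect was −0.47 in B6 (95% interval −0.99 to 0.05) and 0.26 in D2 (95% interval −0.18 to 0.69). Their difference was 0.73 (95% interval 0.04 to 1.42, adjusted p = 0.729). It was the only 1 of 35 regions with an unadjusted interaction p of 0.05 or less, against 6.82% of all regions and 8.84% of regions that overlap a coding exon.

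This result rests on few mice and on the age term. The region had 18 to 60 reads per mouse, and its residual SD was 1.49 times what counting error gives. Without age in the model the difference was 0.46, and an exact two-sided permutation of treatment within strain and sex, with no age term, gave p = 0.175 over 80000 arrangements. Leaving out each mouse in turn moved it between 0.52 and 0.91. It was 0.52 without B6 control replicate 1, the mouse with the fewest reads over all regions, which had 41 reads in this region. It did not reach the unadjusted threshold when any 1 of 9 mice was left out, namely B6 control replicates 1, 4 and 5, B6 CORT+DFP replicates 4 and 6, D2 control replicates 3 and 4, and D2 CORT+DFP replicates 2 and 3. In B6 mice of set 2 the treated mean was 0.52 lower (n = 3 and 5), in D2 mice of set 1 it was 0.49 higher (n = 2 and 3), and in D2 mice of set 3 it was 0.06 higher (n = 4 and 3).

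**Figure D5:**
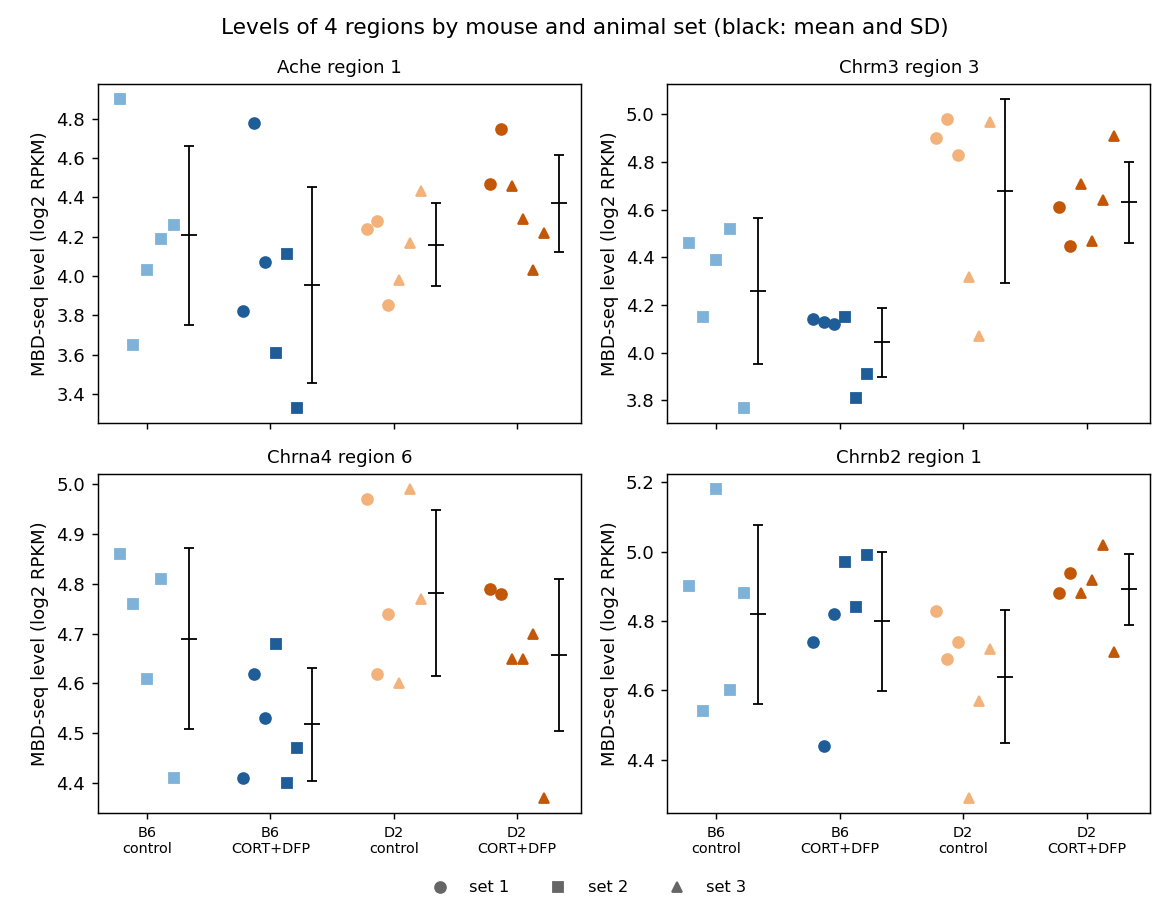
Level (log2 RPKM) of Ache region 1, Chrm3 region 3, Chrna4 region 6 and Chrnb2 region 1 in each mouse, with marker shape for the set and black bars for the group mean and SD. In Chrm3 region 3 the 6 D2 CORT+DFP mice lie at 4.45 and above and the 6 B6 CORT+DFP mice at 4.15 and below, while the groups overlap in the other 3 regions in both comparisons of treatment.

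In the Srrt regions past the end of Ache the interaction estimates were 0.34, −0.02, −0.14 and −0.03 in regions 2 to 5, with p-values between 0.182 and 0.938.

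Near Mir490, Chrm2 region 2 had the widest spread of the 35 regions among D2 CORT+DFP mice. D2 CORT+DFP mice had 3.13, 2.99, 3.77, 4.47, 4.68 and 4.37 log2 RPKM there, with an SD of 0.72, against 4.13, 3.64, 4.40, 4.19, 4.32 and 4.18 in D2 control mice. The 2 lowest values were the 2 mice of set 1, which had 14 and 11 reads. B6 CORT+DFP mice were also lower in set 1, with a mean of 3.65 (n = 3) against 4.07 in set 2 (n = 3). In D2 mice of set 1 the treated mean was 0.99 lower than the control mean, and in set 3 it was 0.09 higher. The effect over all D2 mice was −0.32 (95% interval −0.83 to 0.19). The split by set was noticed after the values were seen and was not tested.

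Between the sexes, 0 of 35 regions differed at an adjusted p under 0.05, against 0.598% of autosomal regions, and 0 at an unadjusted p of 0.05 or less, against 7.91%. The estimates (female minus male) lay between −0.16 and 0.11, and the smallest p was 0.126, in Chrna4 region 6.

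Other genes of the pathway were taken as 4 lists. Of 48 genes 28 had listed regions, 177 in all. Between strains, 12 of the 177 regions passed an adjusted p of 0.05 in control mice and 20 in CORT+DFP mice, against 25.4% and 26.6% of all regions. Slc44a5, a gene of the choline transporter-like family, had 5 of the 12 and 6 of the 20. Slc44a4, of the same family and named by the study from these samples, had 2 of each. The carboxylesterase gene Ces1c, whose family includes enzymes that organophosphates inhibit, had 2 and 3. Among the other receptor genes, 11 of 14 had regions, 48 in all, of which 2 differed between control strains, both in Chrna10, and 0 between CORT+DFP strains (regression; the 2 counts at the same adjusted threshold).

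For treatment in B6, 22 of the 177 regions had an unadjusted p of 0.05 or less (12.4%, against 5.86% of all regions and 7.48% of regions that overlap a coding exon), 17 of them lower in treated mice. They were spread over 12 genes and included 3 regions each of Slc44a4, of Agrn, which encodes agrin, a protein that clusters acetylcholine receptors at the neuromuscular junction, and of Apeh, which encodes a serine hydrolase that DFP binds. Prima1, which encodes the membrane anchor of brain acetylcholinesterase, had 2. In D2 7 of 177 were counted (3.95%, against 5.33% of all regions), 6 of them higher. For the interaction 11 were counted (6.21%, against 6.82%), all with a higher estimate in D2, of which 3 were in Agrn, 3 in Apeh, 2 in Prima1 and 2 in Slc44a4. None of these passed an adjusted p of 0.05, and adjoining regions were counted separately. The interaction is the D2 effect minus the B6 effect, so a lower effect in B6 raises it. Its counts therefore share mice with the B6 counts and are not a separate result. The share of each direction over all regions is not given here.

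Genes of brain cell types were examined in the same way, because the cortex holds several cell types and a change in their mix and a change of methylation within cells cannot be told apart in bulk DNA. Of 27 genes 17 had listed regions, 107 in all. Between strains 5 regions passed an adjusted p of 0.05 in control mice (4.67%, against 25.4% of all regions) and 12 in CORT+DFP mice (11.2%, against 26.6%). For treatment in B6, 12 of 107 had an unadjusted p of 0.05 or less (11.2%, against 5.86% of all regions and 7.48% of regions that overlap a coding exon), all lower in treated mice. For the interaction 13 did (12.1%, against 6.82% and 8.84%), 12 of them with a higher estimate in D2. Cx3cr1, a gene used by microglia, had 45 of the 107 regions, 8 of the 12 and 8 of the 13. Regions of the same gene were counted separately, so these shares lean on this gene. Here too the interaction counts share mice with the B6 counts. Neuronal genes had 0 of 17 regions counted in B6 and 2 in D2. None of the 12 regions counted in B6 passed an adjusted p of 0.05. Whether cell mix had a part in the treatment estimates of the member regions was not tested.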

How the data were processed

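Genomic DNA from the prefrontal cortex of 23 mice was assayed by MBD-seq. Reads were aligned by the authors with STAR 2.5.0a (GRCm38), counted in 150 bp windows with MEDIPS, filtered to windows with CpGs and over 1 CPM in 2 or more libraries in edgeR 3.34.1, and deposited as log2 RPKM values normalized by library size, with a prior count added. Multiplying back gave whole reads plus a prior averaging 2 in 100% of values (tolerance 0.01 reads), and these reads give the depths quoted. A CpG count accompanies each window, and 0 columns of other samples were present. Group, sex, age and set came from the labels.

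Each of the 210191 regions was regressed by least squares (17 residual degrees of freedom), with numpy 2.4.6 and scipy 1.17.1 in Python 3.11.15. The terms, those of the study's model, were strain, treatment, the product of both, age and sex. At an unadjusted p of 0.0001 or less this regression counted 24 regions for the interaction. The paper reports more at that threshold, and the reason for the gap was not tested. P-values are two-sided and were adjusted over all regions (Benjamini-Hochberg). Strain and sex were called at an adjusted p under 0.05, and treatment and interaction were counted at an unadjusted p of 0.05 or less. All values are log2 differences, D2 minus B6, CORT+DFP minus control, or female minus male. Intervals are 95% from the regression. Nothing in the labels beyond the mouse defines a replicate, and sequencing reads cover counting error only. The regions named are those in the span of each gene with the highest level, the largest control strain difference or the smallest interaction p. Also named are those with the shortest distance to the start site, and the 5 with the smallest treatment p in each strain. In the Ache span, region 4 had the highest level and region 3 the largest control strain difference, and both lie in Srrt. Others named were picked after their values were seen. The genes and the lists of other pathway and cell-type genes were chosen with earlier results of these data known. Positions came from GENCODE M21, sequences from its transcripts and from RefSeq. The script was tested on simulated data. Alternatives were limma 3.58.1 in R 4.3.3 (moderated variances and voom weights on the recovered reads), set in place of age, no age, quantile normalization, median centring, log2(RPKM + 1), a minimum mean of 10 reads, autosomes alone, mice of 1 set or strain alone, and omission of single mice. For regions named in the counts, exact permutations of treatment or strain within sex were added after the data were seen. Between 22 pairs of mice of the same group and sex, the reads differed beyond counting error in every pair (chi-square per region 1.18 to 3.99), so none was deposited as 2 samples. Sequences of intronic windows were not analysed here, and those of some exonic windows are not reported here.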

Additional observations from a re-analysis of the deposited data

Results flagged for a closer look

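The groups of 5 or 6 mice in the 21 named regions were searched for single mice far from the rest, by the gap to the nearest mouse over the range of the group (Dixon's ratio, critical value 0.71 for 5 mice and 0.625 for 6). Of 84 groups 9 had such a mouse, where chance gives 4.2, and adjoining regions are not separate cases. D2 CORT+DFP replicate 6 was lowest in 3 regions of Chrna4, with ratios of 0.666 in region 3 (4.43 log2 RPKM, the others 4.88 to 5.10), 0.773 in region 4 (4.49, the others 5.06 to 5.23) and 0.649 in region 6 (4.37, the others 4.65 to 4.79), each from 47 to 51 reads. In Chat region 2, B6 CORT+DFP replicate 5 was low at 3.50 (ratio 0.649) and D2 CORT+DFP replicate 2 high at 4.61 (ratio 0.823). In Chrna7, D2 CORT+DFP replicate 3 was high in region 1 at 4.82 (ratio 0.627) and B6 CORT+DFP replicate 1 low in region 2 at 4.29 (ratio 0.691). D2 control replicate 2 was low in Chrm2 region 2 at 3.64 (ratio 0.646), and D2 control replicate 3 in Chrm3 region 1 at 3.79 (ratio 0.630).

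The treatment-by-strain interaction of Ache region 1 is given here because the strains' effects differed by 0.73 at an unadjusted p of 0.0402, with an adjusted p of 0.729 by the regression.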

How the results depend on the processing

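Counts of called regions are small, and most moved with a setting, usually by 1 region, and the causes were not tested. For the strain difference in control mice (0 of 35), quantile normalization gave 1, Ache region 3, and median centring gave 1, Chrm2 region 4. In CORT+DFP mice (1) the count was 2 with limma, 4 with quantile normalization, 3 with voom weights, 0 with set in place of age and 0 in set 1 alone. Chrm3 region 3 kept its direction and its call when any mouse was left out (0.59 to 0.72), but not with set in place of age (0.61, adjusted p = 0.0614) or in set 1 alone (0.38). For treatment in B6 (1) the count was 0 with set in place of age, 0 without age and 0 with voom weights, and limma and B6 mice of set 2 alone each gave 1 but another region, Ache region 1 and Chrm3 region 1. For treatment in D2 (1) it was 0 with limma, 0 with quantile normalization, 0 with median centring, 2 with voom weights and 3 in D2 mice alone with set as a term, where Chrna7 regions 1 and 2 joined Chrnb2 region 1. For the interaction (1) it was 0 without age and 0 with quantile normalization. With each mouse left out in turn the counts were 0 to 1 for strain in control mice, 1 to 2 in CORT+DFP mice, 0 to 2 for B6, 0 to 1 for D2, 0 to 1 for the interaction and 0 to 0 for sex. The strain difference in control mice of Chrnb2 region 1 turned from −0.15 to 0.17 with set in place of age. Ache region 1 kept the sign of its interaction in every alternative run, and lost the unadjusted threshold without age (0.46) and with quantile normalization (0.97), and also when some single mice were left out. No paired analysis was possible because the labels number no replicates across groups, and the numbers used here follow accession order. At 9 to 107 reads per region and mouse, counting alone gives an SD of 0.18 to 0.26 on the log2 scale, so small differences were not detectable.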
